A study of Mus musculus with 35 samples.

Results

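The growth hormone axis genes described here are 10 of the 49568 gene names in the count tables: Ghrh, Sst, Sstr1, Sstr2, Ghr, Igf1, Igfbp2, Igfbp3, Socs2 and Cish. They were listed by name, with earlier results of these data known, and all 10 had enough counts to be tested. The RNA came from dissected hypothalamus of male B6/J mice, 1 library per mouse, collected at Zeitgeber time 16, that is 16 h after lights-on. Control mice had free access to food (n = 10) or had been without food for 16 h (n = 10). PER2-S662D mice, in which aspartate replaces a phosphorylatable serine of PER2, a core circadian clock protein, made up 1 fed and 1 fasted group (n = 5 each). A further 5 fasted mice were labelled as Per2 knockout, with no fed counterpart. The labels used here give no age and no further description of either allele.

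Library totals ran from 17959586 to 37027342 counts (median 19091336), and the deepest libraries were in the S662D groups. Per2 itself was lower in S662D mice than in controls, by a log2 fold change of -0.59 when fed and -0.55 when fasted (edgeR, adjusted p = 1.18e-07 and 6.80e-07). In the 5 libraries labelled Per2 knockout it lay between 28.2 and 33.4 CPM (counts scaled to library size), against 26.1 to 33.1 CPM in fasted controls. The counts cover the whole gene and the labels do not say which part is deleted. The level of Per2 did not set those 5 libraries apart, and they are called the libraries labelled Per2 knockout throughout. Library numbers place controls 1 to 5, controls 6 to 10, the labelled knockout and the S662D mice in separate ranges, and the effect of a genotype cannot be told apart from that of its range. Among the S662D libraries, replicates 2, 3 and 4 of each feeding state carry an additional final digit in that number, whose meaning the headers do not state. Markers of hypothalamic neurons other than arcuate ones summed to 508 to 742 CPM, and arcuate neuron markers to 60.3 to 96.3 CPM, over all 35 libraries. The 10 anterior pituitary markers summed to 2.10 to 7.53 CPM. Gh, the pituitary product of the axis, had 0 counts in every fed and fasted control and every fasted S662D library and at most 1 count elsewhere, and 3 counts would be at most 0.167 CPM.

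In this axis, growth hormone-releasing hormone (Ghrh) from arcuate neurons drives growth hormone release from the pituitary, and somatostatin (Sst) from periventricular neurons restrains it through receptors such as those encoded by Sstr1 and Sstr2. Growth hormone acts on its receptor (Ghr), which signals through JAK2 and STAT5, raises transcription of insulin-like growth factor 1 (Igf1), and induces the feedback inhibitors encoded by Socs2 and Cish. Igfbp2 and Igfbp3 encode secreted proteins that bind IGFs, and Sst is also made by many neurons that have no part in pituitary control.

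Promoter stretches of 3 of the genes are shown because their letters match recognition sequences of the factors that act in this axis. RefSeq promoter windows (GRCm38.p6, 250 bases before to 50 after a start) were on hand for 8 of the 10 genes, all but Sstr1 and Socs2. The palindromic STAT5 consensus TTCNNNGAA, which reads the same on both strands, was found only in the Cish window among these 8, where it occurred 2 times. It occurs in 8.30% of 32851 windows of the table. The palindromic cyclic AMP response element TGACGTCA, the site of the transcription factor CREB, was found in the Sst and Sstr2 windows and occurs in 1.79% of all windows. A match describes the letters, not binding. Capitals mark the motif. The Cish stretch covers bases -5 to 25 from the start (chr9:107296654-107296683, plus strand), the Sst stretch bases -59 to -30 (chr16:23890874-23890903, minus strand) and the Sstr2 stretch bases -69 to -40 (chr11:113619258-113619287, plus strand).
Cish: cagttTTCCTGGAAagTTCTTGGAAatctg
Sst: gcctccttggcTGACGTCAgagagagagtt
Sstr2: ccaagctgccgTGACGTCAcgggcgggggc

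Sst was by far the most abundant of the 10 transcripts per length. Its level over all 35 libraries was 140 ± 13.3 CPM per kilobase of exon (SD), which was 12.1 times that of Igfbp2 (11.6 ± 3.32 CPM per kilobase), the next in order. Sstr1 followed at 9.08 ± 0.854, Sstr2 at 4.49 ± 0.611, Igfbp3 at 4.11 ± 0.589 and Ghrh at 3.31 ± 0.775 CPM per kilobase. The receptor and its targets were the lowest by this measure, with Ghr at 1.86 ± 0.218, Socs2 at 1.32 ± 0.152, Igf1 at 1.26 ± 0.129 and Cish at 0.713 ± 0.124 CPM per kilobase. Of the 9 pairs of neighbours in this order, only Sst over Igfbp2 and Sstr1 over Sstr2 had ranges that did not overlap over the 35 libraries. The order was least firm between Sstr2 and Igfbp3, where Sstr2 was above Igfbp3 in 22 of 35 libraries, and between Socs2 and Igf1, where Socs2 was above in 26 of 35. Relative spread over all libraries was widest for Igfbp2 (coefficient of variation 28.7%) and Ghrh (23.4%) and narrowest for Sstr1 (9.41%) and Sst (9.48%). Ghrh rested on few counts, 24 to 72 per library, while Sst had 1332 to 2993. The order per length depends on the length used, here all annotated exon bases (9053 for Ghr, 9531 for Socs2, 9904 for Igf1 and 6419 for Cish). By mean CPM without length, Ghrh was the lowest (2.21). Ghr (16.8), Socs2 (12.6) and Igf1 (12.5) were then above Sstr2 (9.63).

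**Figure D1:**
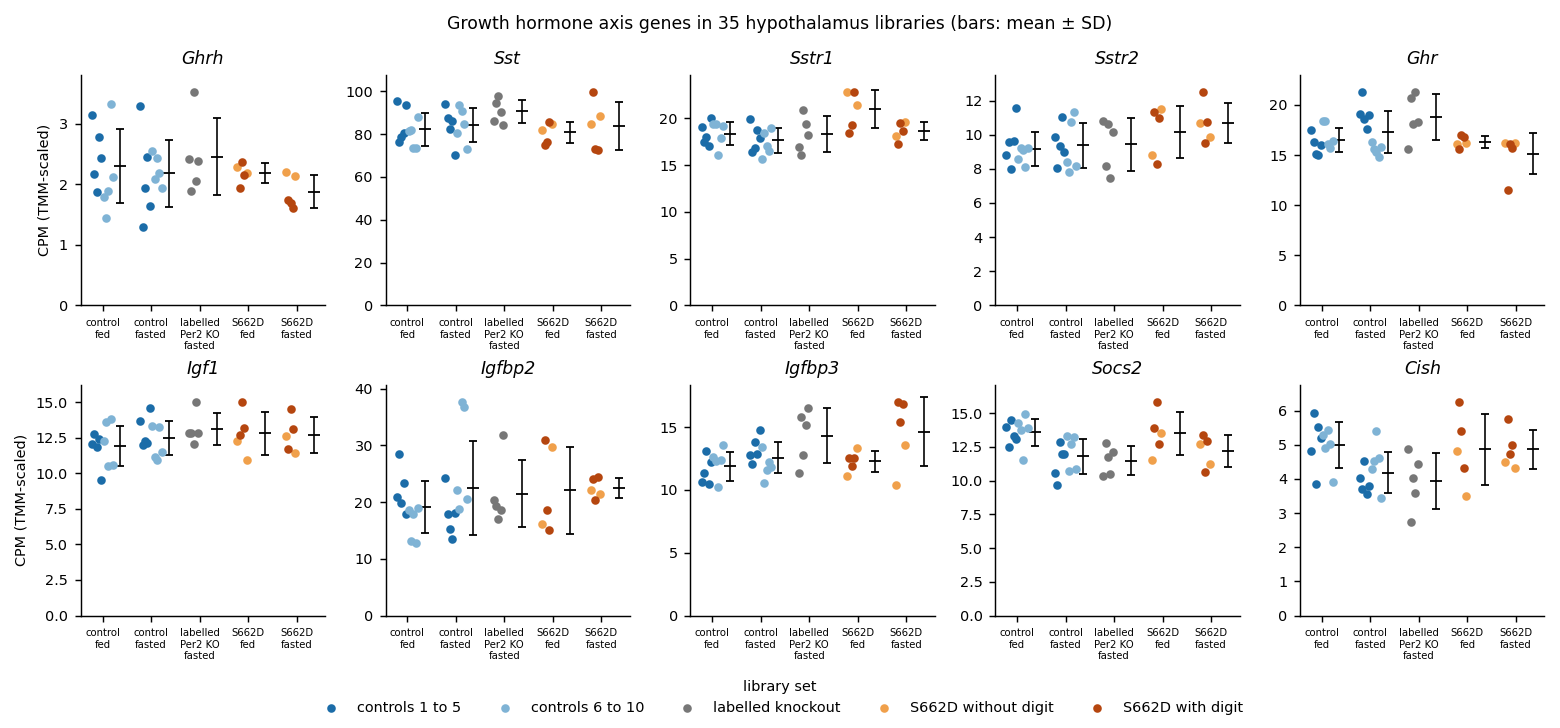
TMM-scaled CPM (vertical axes, from 0) of each of the 10 genes in every library of the 5 groups; points are libraries coloured by library set, and bars give the mean ± SD of a group. The groups overlap in every panel, fasted controls sit low within Socs2 and Cish, and 2 fasted controls exceed 36 CPM of Igfbp2.

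None of the 10 genes passed the test in any of the 6 comparisons (edgeR's quasi-likelihood test, adjusted p below 0.05 over the 18063 genes tested). Fasting in controls called 0 of 10 against 3.88% of all genes (2.2% higher and 1.68% lower), with 2 of the 10 at an unadjusted p below 0.05. Fasting in S662D mice called 0 of 10 against 2.64% (1.8% higher and 0.83% lower), with 2 unadjusted. The difference between those 2 fasting responses called 0 of 10 and 0% of all genes, with 0 of the 10 and 6.37% of all genes unadjusted. S662D against control called 0 of 10 against 4.69% when fed (3.12% higher and 1.57% lower, 1 unadjusted) and 0 of 10 against 5.57% when fasted (3.35% higher and 2.23% lower, 2 unadjusted). The libraries labelled Per2 knockout against fasted controls called 0 of 10 against 0.0277% (0.00554% higher and 0.0221% lower), with 1 unadjusted. DESeq2's Wald test called 1 of the 10, Sstr1 in fed S662D mice, where it called 1423 genes in all. It called 0 of 10 in each of the other 5 comparisons. At these background rates a count of 0 among 10 is close to the share of all genes called. The median log2 fold change of the 10 genes was 0.03 in controls on fasting and 0.06 in the labelled knockout, the lowest being -0.03 for the difference of the fasting responses, where the median over all genes lay between -0.01 and 0.00 in each comparison.

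**Figure D2:**
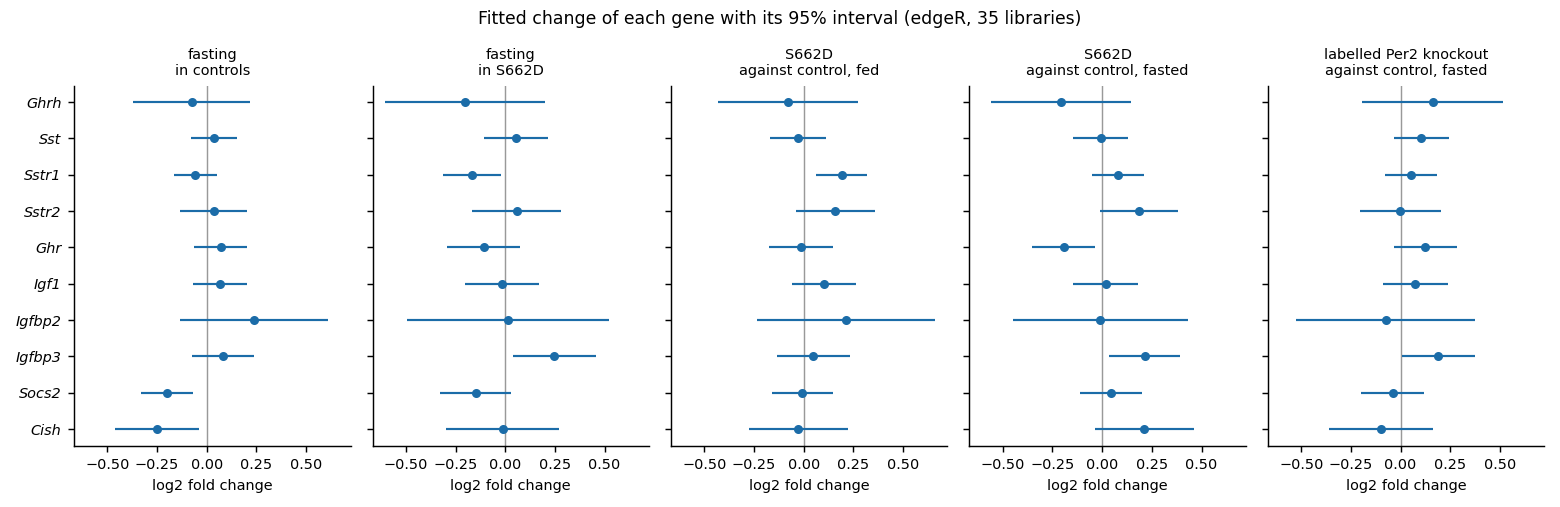
Fitted log2 fold change (horizontal axes) of each of the 10 genes in 5 comparisons, with points for the estimate and lines for its 95% interval from edgeR. The intervals of Socs2 and Cish on fasting in controls, Sstr1 and Igfbp3 on fasting in S662D, Sstr1 in fed S662D, Ghr and Igfbp3 in fasted S662D and Igfbp3 in the labelled knockout leave out 0, and none of these passed adjustment.

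Among the hypothalamic peptides, Ghrh and Sst showed no difference beyond their spread. Ghrh (chromosome 2, 157329497 to 157347506, minus strand, mm10) ranged from 1.44 to 3.32 CPM in fed controls (median 2.15) and from 1.29 to 3.29 CPM in fasted controls (median 2.14). In S662D mice it was 2.28, 1.94, 2.37, 2.15 and 2.18 CPM when fed and 2.20, 1.74, 1.69, 1.61 and 2.13 CPM when fasted, and in the labelled knockout 2.41, 1.89, 3.53, 2.05 and 2.39 CPM. Fasted S662D libraries were the lowest as a group, with 1 of 5 above the median of fasted controls, and their range lay inside that of fasted controls. The fitted change of Ghrh on fasting was -0.08 (95% interval -0.37 to 0.22) in controls and -0.20 (-0.60 to 0.20) in S662D. These intervals include changes of either sign.

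Sst (chromosome 16, 23889581 to 23890844, minus strand) ranged from 73.4 to 95.5 CPM in fed controls (median 81.1) and 70.2 to 94.1 CPM in fasted controls (median 85.5). The labelled knockout had 86.4, 94.4, 97.7, 90.4 and 84.2 CPM, of which 4 of 5 lay above the fasted control median and 2 above the highest fasted control. S662D libraries spanned 75.0 to 85.5 CPM when fed and 72.8 to 99.9 CPM when fasted, overlapping the controls in full or in part. The change of Sst was among the best bounded: 0.04 (95% interval -0.08 to 0.15) on fasting in controls, 0.10 (-0.04 to 0.24) in the labelled knockout and -0.01 (-0.15 to 0.13) in fasted S662D mice. Because this is bulk tissue, fewer cells of a type and less RNA per cell cannot be told apart for any of these genes.

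Of the somatostatin receptors, Sstr1 came closest to passing the test in fed S662D mice. Sstr1 (chromosome 12, 58211772 to 58214444, plus strand) encodes an inhibitory G protein-coupled receptor. It measured 16.1 to 20.0 CPM in fed controls (median 18.6) and 22.9, 18.5, 19.3, 22.9 and 21.4 CPM in fed S662D mice. Thus 3 of the 5 fed S662D libraries lay above the highest fed control, and the groups overlapped in the other 2. The log2 fold change was 0.19 (SE 0.06, 95% interval 0.06 to 0.32, adjusted p = 0.0679), and DESeq2 gave 0.19 with an adjusted p of 0.0363. The estimate stayed at 0.19 with either control set as the reference, and was 0.27 in S662D libraries without the additional digit and 0.14 in those with it (adjusted p 0.0970, 0.321, 0.866 and 0.226). Fasted S662D libraries were at 18.2, 17.3, 19.5, 18.7 and 19.6 CPM, of which 0 of 5 lay above the fed S662D median, with a fitted change on fasting of -0.17 (adjusted p = 0.256). In fasted mice the S662D estimate was 0.08 (95% interval -0.05 to 0.21), and the difference between the 2 fasting responses was -0.11 (adjusted p = 0.835).

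Sstr2 (chromosome 11, 113619342 to 113626028, plus strand), the other somatostatin receptor of the set, ranged from 8.01 to 11.6 CPM in fed controls (median 9.14) and 7.82 to 11.3 CPM in fasted controls (median 9.16). All 5 fasted S662D libraries (10.7, 12.5, 9.50, 10.8 and 9.87 CPM) exceeded the fasted control median, and 1 exceeded the highest fasted control. The log2 fold change was 0.18 (95% interval -0.01 to 0.38, adjusted p = 0.278). Fed S662D libraries had 8.80, 11.3, 8.28, 11.001 and 11.5 CPM and the labelled knockout 10.8, 8.14, 10.6, 7.45 and 10.1 CPM, each overlapping its controls.

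None of the other genes of this arm passed the test. Of 11 listed genes for releasing and inhibiting peptides, their receptors and factors of the neurons that make them, 9 were tested and 0 were called in each of the 6 comparisons by edgeR and by DESeq2, with at most 2 at an unadjusted p below 0.05 in any comparison. The cortistatin gene Cort, a relative of Sst, and Ghrhr, the Ghrh receptor, were too low to test. Ghsr, the ghrelin receptor, was at 4.70 ± 0.625 CPM in fed controls and 5.51 ± 0.911 CPM in fasted controls (SD, n = 10 each), a fitted change of 0.23 (adjusted p = 0.299). In S662D mice it was at 4.77 ± 0.857 and 6.02 ± 1.14 CPM (n = 5 each; 0.32, adjusted p = 0.252). Gal, encoding galanin, was at 14.8 ± 2.69 and 15.8 ± 2.29 CPM in fed and fasted controls (adjusted p = 0.802).

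Socs2 was the member nearest to the threshold on fasting in controls. Socs2 (chromosome 10, 95385362 to 95417180, minus strand) encodes a SOCS-box protein that limits growth hormone receptor signalling. It measured 11.5 to 15.0 CPM in fed controls (median 13.8) and 9.68 to 13.3 CPM in fasted controls (median 11.97). None of the 10 fasted controls reached the fed median, and 4 of 10 lay below the lowest fed library, but the ranges overlapped. The log2 fold change was -0.20 (SE 0.06, 95% interval -0.33 to -0.07), with 13.6 ± 1.02 against 11.8 ± 1.27 CPM (SD, n = 10 each) and an adjusted p of 0.0687. Both control sets had the same sign, at -0.24 (SE 0.09) in controls 1 to 5 and -0.16 (SE 0.09) in controls 6 to 10, and the difference between them was 0.08 (adjusted p = 0.758).

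The call for Socs2 on fasting depended on which libraries were kept, and 26 of 31 alternatives, DESeq2 among them, did not call it. Socs2 passed without fed control 8 (-0.23, adjusted p = 0.0339), without fasted control 6 (-0.22, 0.0403) or without fasted control 9 (-0.23, 0.0358). It also passed without the 5 libraries that had over 500 CPM of choroid plexus markers (-0.25, adjusted p = 0.0301) and without the 10 that had over 100 CPM (-0.28, 0.0490), alternatives chosen after seeing the data. In that order, these fits called 647, 785, 760, 728 and 425 of all genes. Several marker lists moved in the same comparison, where 1.68% of all genes were lower and 2.2% higher. Of 8 endothelial markers 3 were lower, with sums of 211 to 243 CPM in fed and 189 to 220 CPM in fasted controls. Of 8 microglia markers 2 were lower, with sums of 236 to 268 CPM in fed and 200 to 271 CPM in fasted controls. Astrocyte markers had 2 lower and 1 higher, and oligodendrocyte markers 1 lower and 1 higher, of 8 each. Arcuate neuron markers had 2 of 7 higher, and meningeal and fibroblast markers 1 of 10 higher. The part of these cell types in the Socs2 values was not tested. No defining marker of the endothelial or microglia list was at 0.

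In the other groups Socs2 did not pass the test in any comparison. Fed S662D libraries had 11.5, 13.9, 15.8, 12.7 and 13.6 CPM and fasted ones 12.7, 13.4, 10.6, 12.9 and 11.3 CPM, of which 0 of 5 lay above the fed S662D median (log2 fold change -0.15, 95% interval -0.33 to 0.03, adjusted p = 0.461). The libraries labelled Per2 knockout had 10.3, 12.8, 11.7, 10.5 and 12.1 CPM, a range inside that of fasted controls, with a fitted difference of -0.04 (-0.20 to 0.12). S662D differed from control by -0.01 (-0.16 to 0.15) when fed and 0.05 (-0.11 to 0.20) when fasted. Of its 50-base words, 4.58% also occur in transcripts of other genes.

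Cish, which encodes the related feedback inhibitor CIS and carries the TTCNNNGAA pair shown above, had the larger fitted change on fasting in controls and the wider error. Cish (chromosome 9, 107296026 to 107302784, plus strand) measured 3.87 to 5.94 CPM in fed controls (median 5.12) and 3.44 to 5.39 CPM in fasted controls (median 4.16). Only 1 of 10 fasted controls lay above the fed median and 4 of 10 lay below the lowest fed library, with overlapping ranges. The log2 fold change was -0.25 (SE 0.10, 95% interval -0.46 to -0.04, adjusted p = 0.234). It was -0.37 (SE 0.15) in controls 1 to 5 and -0.14 (SE 0.15) in controls 6 to 10. In S662D mice the values were 4.81, 6.26, 5.41, 4.34 and 3.51 CPM when fed and 4.51, 5.76, 4.73, 5.01 and 4.33 CPM when fasted, a fitted change of -0.01 (-0.30 to 0.27). The difference from the control response was 0.24 (-0.11 to 0.59, adjusted p = 0.832), so the 2 responses were not shown to differ. All 5 fasted S662D libraries lay above the fasted control median, with a fitted difference of 0.21 (adjusted p = 0.338). The labelled knockout had 4.88, 2.74, 4.02, 3.59 and 4.45 CPM. Cish had 58 to 232 counts per library, and 11.5% of its exon bases overlap Gm17040 and Gm17041, whose reads cannot be told from its own without strand.

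Ghr, the growth hormone receptor gene (chromosome 15, 3317760 to 3583492, minus strand), differed between the control sets in its fasting response. In controls 1 to 5 it was 17.5, 16.3, 15.1, 15.0 and 16.0 CPM when fed and 19.1, 21.3, 18.6, 17.6 and 19.0 CPM when fasted, so every fasted library lay above every fed one. In controls 6 to 10 it was 18.4, 18.4, 16.1, 15.7 and 16.4 CPM when fed and 16.3, 15.6, 15.3, 14.8 and 15.8 CPM when fasted, with overlapping ranges. In a fit with the sets as separate groups, Ghr rose on fasting in controls 1 to 5 (log2 fold change 0.26, SE 0.08, adjusted p = 0.0386, where 8.28% of all genes were called). That call did not hold in a fit of controls 1 to 5 as the only controls (0.25, adjusted p = 0.0670) or without the 5 libraries over 500 CPM of choroid plexus markers (0.26, adjusted p = 0.0640). In controls 6 to 10 the estimate was -0.13 (SE 0.08, adjusted p = 0.391, 3.04% called). The difference between the sets was -0.39 (SE 0.11, adjusted p = 0.0259), in a test that called 10.6% of all genes. Without the same 5 libraries that difference was -0.36 (adjusted p = 0.0934). Over all controls together, the fitted change on fasting was 0.07 (95% interval -0.06 to 0.20).

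Because of that split, the comparison of Ghr between genotypes in fasted mice depended on the controls used. Fasted S662D libraries had 16.2, 11.5, 16.1, 15.7 and 16.2 CPM, against 14.8 to 21.3 CPM (median 16.9) in fasted controls. None of the 5 lay above the control median, and replicate 2 lay below the lowest control. The log2 fold change was -0.19 (SE 0.08, 95% interval -0.35 to -0.03, adjusted p = 0.143). It was -0.33 against controls 1 to 5 alone, which passed (adjusted p = 0.0127), and -0.04 against controls 6 to 10 alone (adjusted p = 0.864). Of all genes, 1680 and 48 were called against these 2 sets. With all controls, leaving out 1 library at a time gave estimates for Ghr of -0.22 to -0.11. The libraries labelled Per2 knockout, at 15.6, 20.7, 18.1, 21.3 and 18.3 CPM, differed from fasted controls by 0.12 (-0.04 to 0.28), by -0.02 from controls 1 to 5 and by 0.28 from controls 6 to 10 (adjusted p = 0.991 and 0.0990). Fed S662D libraries, at 15.6 to 17.0 CPM, lay within the 15.0 to 18.4 CPM of fed controls (-0.02, 95% interval -0.18 to 0.15).

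**Figure D3:**
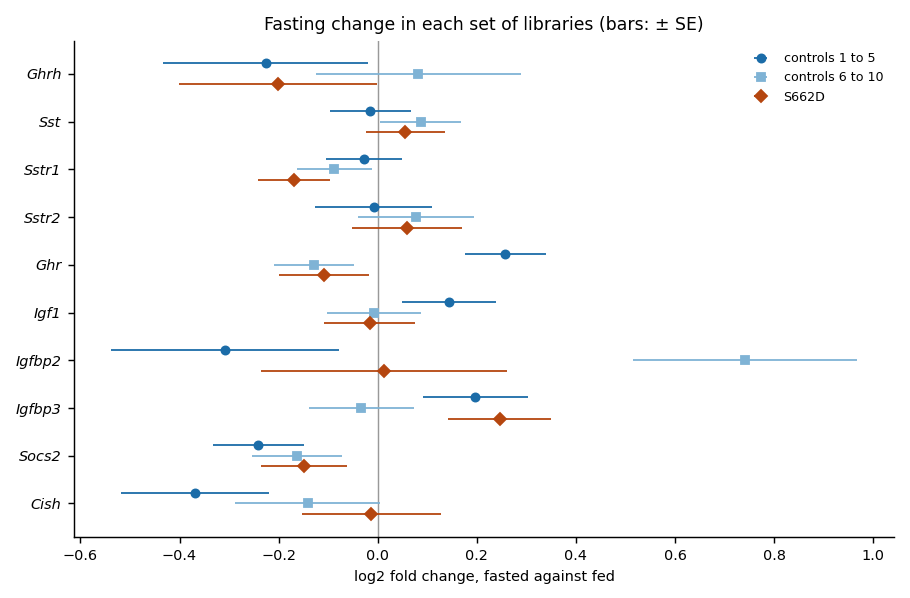
Log2 fold change on fasting (horizontal axis) of each of the 10 genes in controls 1 to 5, controls 6 to 10 and S662D mice, as points with bars for ± SE. Socs2, Cish and Sstr1 lie below 0 in all 3 sets, and the other 7 genes lie on opposite sides of 0 in the 2 control sets. Of these 7, the difference passed for Ghr and Igfbp2, in a test that called 10.6% of all genes.

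Igf1, the growth factor gene downstream of the receptor (chromosome 10, 87858265 to 87937042, plus strand), did not differ beyond its spread in any comparison. It ranged from 9.49 to 13.8 CPM in fed controls (median 12.2) and 10.9 to 14.6 CPM in fasted controls (median 12.2). S662D libraries had 12.2, 12.7, 15.0, 13.2 and 10.9 CPM when fed and 12.6, 11.7, 14.5, 13.1 and 11.4 CPM when fasted. The labelled knockout had 12.8, 12.8, 12.1, 15.0 and 12.9 CPM, of which 1 lay above every fasted control. Fitted changes were 0.07 (95% interval -0.07 to 0.20) on fasting in controls, -0.02 (-0.20 to 0.17) on fasting in S662D, 0.10 (-0.06 to 0.26) and 0.02 (-0.14 to 0.18) for S662D fed and fasted, and 0.07 (-0.09 to 0.24) for the labelled knockout.

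Igfbp3 was fitted higher in fasted S662D mice and in the labelled knockout than in fasted controls, but neither difference passed the test. Igfbp3 (chromosome 11, 7206086 to 7213923, minus strand) encodes the main IGF carrier of serum. It measured 10.2 to 13.6 CPM in fed controls (median 12.3) and 10.5 to 14.7 CPM in fasted controls (median 12.5). Fed S662D libraries had 11.1, 12.5, 11.9, 12.5 and 13.3 CPM and fasted ones 10.4, 17.0, 15.4, 16.8 and 13.6 CPM. Replicate 1 of the fasted S662D mice was thus the lowest of both S662D groups, while the other 4 lay above every fed S662D library. The labelled knockout had 11.4, 15.8, 12.8, 15.1 and 16.5 CPM, with 3 of 5 above the highest fasted control.

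The test of Igfbp3 rested on that 1 library and on the library set. The log2 fold change was 0.25 (SE 0.10, adjusted p = 0.242) on fasting in S662D, 0.21 (SE 0.09, adjusted p = 0.153) for fasted S662D and 0.19 (SE 0.09, adjusted p = 0.817) for the labelled knockout, the last 2 sharing the same fasted controls. Without fasted S662D replicate 1, the first 2 became 0.35 (adjusted p = 0.0293) and 0.32 (adjusted p = 0.0120). In the S662D libraries with the additional digit they were 0.41 and 0.39 (adjusted p = 0.0290 and 0.00234), and in those without it -0.03 and -0.07 (adjusted p = 0.999 and 0.997). Of all genes, the same 2 comparisons called 585 and 1802 without replicate 1, 683 and 3148 with the digit, and 7 and 21 without it. The 3 fasted S662D libraries with the digit were at 16.4 ± 0.861 CPM and the 2 without it at 11.97 ± 2.27 CPM (SD). The digit's part in these values was not tested beyond this split. The difference between the S662D and control fasting responses was 0.16 (95% interval -0.10 to 0.42, adjusted p = 0.832).

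Igfbp2 varied more than any other of the 10 genes, and most of its highest values came from the libraries with the most choroid plexus marker RNA. Igfbp2 (chromosome 1, 72824503 to 72852474, plus strand) lies 18.6 Mb from Per2 and is strongly expressed by choroid plexus, the tissue that secretes cerebrospinal fluid. In fed controls it ranged from 12.7 to 28.5 CPM (median 18.8) and in fasted controls from 13.5 to 37.7 CPM (median 19.7). Fed S662D libraries had 16.1, 31.0, 18.7, 15.1 and 29.8 CPM, fasted ones 22.1, 24.0, 20.4, 24.4 and 21.4 CPM, and the labelled knockout 20.3, 19.4, 17.1, 18.7 and 31.9 CPM. Fed control 2, fasted controls 8 and 9 and fed S662D replicates 2 and 5 had over 500 CPM summed over 8 choroid plexus markers. Igfbp2 was 28.5 to 37.7 CPM in these 5 libraries and 12.7 to 31.9 CPM in the other 30. The highest of those 30, replicate 5 of the labelled knockout, had 297 CPM of the markers. In the 25 libraries under 100 CPM, Igfbp2 was 12.7 to 24.4 CPM. After subtracting group means, Igfbp2 and the summed markers had a Pearson correlation of 0.752 over 35 libraries, 0.265 over the 30 and 0.065 over the 25, given as a description of libraries that share these groups.

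**Figure D4:**
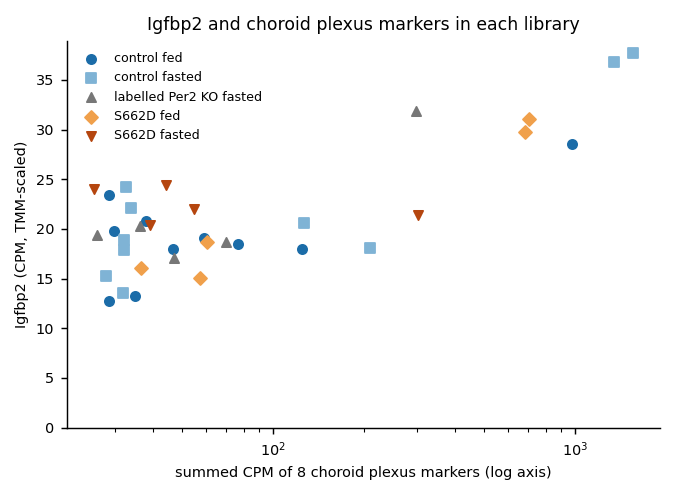
Igfbp2 (vertical axis, CPM) against the summed CPM of 8 choroid plexus markers (horizontal log axis) in each of the 35 libraries, with a symbol for each group. The 5 libraries over 500 CPM of the markers sit at 28.5 to 37.7 CPM of Igfbp2, and the 25 under 100 CPM sit at 12.7 to 24.4.

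With all libraries, the change of Igfbp2 on fasting was 0.24 (95% interval -0.14 to 0.61) in controls and 0.01 (-0.50 to 0.52) in S662D. Without the 5 libraries over 500 CPM these became 0.05 (adjusted p = 0.914) and 0.44 (adjusted p = 0.337), and S662D against control became -0.13 when fed and 0.25 when fasted in place of 0.21 and -0.01 (adjusted p = 0.773 and 0.331). In the fit with separate control sets, the fasting response was -0.31 (SE 0.23) in controls 1 to 5 and 0.74 (SE 0.23) in controls 6 to 10. The difference of 1.05 (SE 0.32) passed the test (adjusted p = 0.0357) and was 0.53 (adjusted p = 0.187) without the 5 libraries, where 5.16% of all genes were called. All 8 choroid plexus markers had a positive fitted change on fasting in controls and a negative one in S662D, and 0 of 8 were called in either. Their medians were 0.90 and -1.10, where Igfbp2 had 0.24 and 0.01. The part of choroid plexus RNA in these changes was not tested.

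Outside the 10 members, edgeR called some of the signalling genes downstream of the receptor, the longest of the 4 pathway gene lists. Of 15 listed genes of growth hormone signalling, all tested, 2 rose and 1 fell on fasting in controls, where 2.2% of all genes were higher and 1.68% lower. Bcl6, a transcriptional repressor that competes with STAT5 for its sites, went from 15.8 to 21.8 CPM (median 18.3) when fed to 17.8 to 27.5 CPM (median 23.3) when fasted, a log2 change of 0.35 (SE 0.07, adjusted p = 0.00195). Ptpn1, a phosphatase that acts on JAK2, went from 37.7 to 44.6 CPM (median 40.8) to 39.97 to 52.6 CPM (median 47.2), a change of 0.17 (SE 0.04, adjusted p = 0.00897). Socs3, a cytokine-induced inhibitor of JAK signalling, went from 1.99 to 3.87 CPM (median 2.52) to 1.28 to 2.69 CPM (median 1.80), a change of -0.49 (SE 0.13, adjusted p = 0.0229). The fed and fasted ranges overlapped for all 3. The list's median change was 0.02 against 0.00 over all genes.

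Of these 3, Bcl6 differed between the control sets. In the fit with the sets as separate groups, the estimate for Bcl6 was 0.60 in controls 1 to 5 (adjusted p = 1.06e-05) and 0.09 in controls 6 to 10 (adjusted p = 0.588), a difference of -0.50 (SE 0.12, adjusted p = 0.00987). For Socs3 the estimates were -0.66 (adjusted p = 0.0231) and -0.33 (adjusted p = 0.330), and the difference of 0.33 did not pass (adjusted p = 0.458). For Ptpn1 they were 0.17 and 0.18 (adjusted p = 0.0666 and 0.0802), with a difference of 0.01 (adjusted p = 0.957). For Socs3 the call was also lost without fed control 2 or 6 or fasted control 3, 4, 5 or 10, with log2 fold changes of -0.41 (adjusted p = 0.0645) for fed control 2 and -0.44 to -0.46 for the others (adjusted p 0.0505 to 0.0591). In S662D mice Bcl6 rose on fasting by 0.37 (SE 0.10, adjusted p = 0.0355), from 17.6, 18.4, 18.6, 19.6 and 16.2 CPM to 18.8, 29.1, 23.5, 25.0 and 21.3 CPM, with 4 of 5 fasted libraries above every fed one. That call was lost when any of fed replicates 1, 2, 3 and 5 or fasted replicates 2, 3 and 4 was left out, with log2 fold changes of 0.28 to 0.38 (adjusted p 0.0620 to 0.203).

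On the IGF side, 2 of 7 listed ligands, receptors and substrates and 1 of the 15 signalling genes were higher in fed S662D mice than in fed controls, against 3.12% of all genes. Irs1, an adaptor of the IGF1 and insulin receptors, was at 12.8, 17.6, 20.1, 18.7 and 13.9 CPM against 10.3 to 15.2 CPM (median 12.8) in fed controls, a log2 change of 0.43 (SE 0.09, adjusted p = 0.00716). Igf2r, which clears IGF2, was at 35.02, 41.0, 36.4, 40.4 and 37.7 CPM against 28.4 to 36.2 CPM (median 32.1), a change of 0.25 (SE 0.06, adjusted p = 0.0145). Stat5b, a STAT activated by the growth hormone receptor, was at 67.4, 73.5, 75.6, 79.3 and 68.9 CPM against 62.8 to 71.8 CPM (median 66.8), a change of 0.13 (SE 0.04, adjusted p = 0.0472). The 3 libraries with the additional digit held the 3 highest values of Irs1 and Stat5b and the 2 highest of Igf2r, and the groups overlapped for all 3 genes. About 30.9% of the exon bases of Irs1 overlap Gm9747. In the libraries without the digit the changes were 0.11 for Irs1, 0.18 for Igf2r and 0.03 for Stat5b (adjusted p = 1.00 for each), and in those with it 0.60, 0.30 and 0.20 (adjusted p = 6.84e-06, 0.00413 and 0.00213). Of all genes, this comparison called 16 without the digit and 3106 with it. DESeq2 called 4 of the 7 higher in fed S662D mice, adding Irs2 and Irs4, and Irs2 also in fasted ones. It called 1423 genes in all when fed and 1345 when fasted, against 847 and 1007 by edgeR. It further called Socs7 of the signalling list and Igfbp5 of the binding proteins in fed S662D mice, for which edgeR gave 0.13 (adjusted p = 0.0848) and 0.16 (adjusted p = 0.0818). In the same comparison 2 of 8 endothelial markers were higher and 1 lower, with sums of 216 to 248 CPM against 211 to 243 CPM, and 2 of 8 oligodendrocyte markers were lower, with sums of 7752 to 9238 CPM against 7758 to 10410 CPM. All 8 choroid plexus markers had a positive fitted difference (median 0.97, 0 called), and the part of these cell types in the calls was not tested. The median change of the 7 genes was 0.29 against -0.01 over all genes.

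Single libraries also decided these S662D calls. The Irs1 call was lost without fed S662D replicate 3 (0.36, adjusted p = 0.0604) or 4 (0.39, 0.0719), and the Igf2r call without replicate 2 (0.22, 0.0914) or 4 (0.23, 0.101). Stat5b lost its call without any of fed S662D replicates 2, 3 and 4 or fed controls 1 to 6, with log2 fold changes of 0.10 to 0.14 (adjusted p 0.0536 to 0.269).

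Of 11 IGF-binding proteins and their proteases, 9 were tested and 1 was higher in fasted S662D mice than in fasted controls, against 3.35% of all genes. Igfbp7, a secreted protein of vessels that binds IGFs weakly, was at 17.6, 33.4, 25.0, 29.4 and 20.7 CPM against 16.0 to 22.8 CPM (median 19.8), a log2 change of 0.34 (SE 0.10, adjusted p = 0.0311). Replicates 2, 3 and 4, which carry the digit, were the 3 above every control, with 0.57 in those libraries (adjusted p = 1.50e-05) and -0.04 in those without it (adjusted p = 0.997). Of 8 endothelial markers, 4 were called higher and 0 lower in fasted S662D mice, and only 5 had a positive fitted difference. Their sums were 194 to 260 CPM against 189 to 220 CPM in fasted controls, and their part was not tested. Of all genes, this comparison called 3148 with the digit and 21 without it. The Igfbp7 call was lost without fasted S662D replicate 2 (0.22, adjusted p = 0.232), 3 (0.35, 0.0767) or 4 (0.28, 0.158), or without fasted control 3 (0.32, 0.0528) or 5 (0.31, 0.0557). Igfbp5, the most abundant of these genes, was at 187 ± 12.01 CPM in fed and 174 ± 6.65 CPM in fasted controls (SD, n = 10 each; log2 fold change -0.10, adjusted p = 0.271). In the labelled knockout 0 genes of the 4 lists were called by edgeR or DESeq2, with 1 gene, of the signalling list, at an unadjusted p below 0.05.

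Within groups the 10 genes did not vary as a block. After subtracting group means, correlations of log2 CPM between pairs over the 35 libraries ran from -0.482 (Sst and Igf1) to 0.379 (Sstr2 and Igfbp2), and all are descriptions of libraries that differ in dissection and depth. The values below are the highest of a search over all genes and are not comparable with those between pairs of members. Among 15478 genes with at least 1 CPM, the nearest to Sst were Caly (0.734), Ache (0.718) and Podxl2 (0.713). Nearest to Sstr2 were Tmem176b (0.711), Tac2 (0.692), an arcuate peptide gene, and Rarres2 (0.664). Sstr1 was nearest to Sparc (0.651), Zkscan7 (0.601) and Crybb1 (0.587). For Ghr they were Brwd1 (0.826), Smg1 (0.805) and Herc1 (0.776), and for Igf1 Samd8 (0.786), Utp14b (0.777) and Ppm1k (0.775). Igfbp2 was nearest to Enpp2 (0.823), which choroid plexus expresses strongly, Cgnl1 (0.808) and Col8a2 (0.805). Igfbp3 was nearest to Gng12 (0.723), Htr2a (0.679) and Slitrk3 (0.674), Socs2 to Adamts15 (0.633), Shox2 (0.622) and Car4 (0.614), and Cish to Pgap3 (0.683), Pou3f1 (0.632) and Pltp (0.627). No gene reached 0.6 with Ghrh.

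Summed marker lists moved with several members within groups in the same way. Sstr2 had a correlation of 0.685 with the arcuate neuron markers, a list that includes Tac2, named above as near Sstr2. Sst had 0.651 with markers of other hypothalamic neurons. Igf1 had 0.623 with tanycyte markers, the tanycytes being glia that line the third ventricle. Cish had 0.537 and Igfbp2 0.553 with markers of cortex, hippocampus and amygdala, and Socs2 0.494 with thalamus markers and 0.412 with endothelial markers. Ghr had -0.522 with the arcuate list and 0.494 with the tanycyte list. The thalamus list summed to 1313 to 1825 CPM over the libraries and the cortical list to 170 to 304 CPM. Whether this RNA came from neighbouring tissue or from hypothalamic cells with the same transcripts was not tested. The part of either list in the members' values was not tested.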

How the data were processed

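The authors deposited raw counts per gene for each of the 35 libraries. Per the file headers, featureCounts 2.0.1 counted fragments by gene name against GENCODE vM12 (mm10), counting multi-mapping reads and without strand. STAR 2.7.10b is named in the submitters' processing notes. Counts were tested with edgeR 4.0.16 (R 4.3.3): filterByExpr with a minimum count of 10, TMM scaling, all 35 libraries in 1 quasi-likelihood fit, Benjamini-Hochberg adjustment over 18063 genes, and a call at an adjusted p below 0.05. Intervals are at 95%, and CPM is scaled by TMM. DESeq2 1.42.0 and other scalings, filters, library sets and left-out libraries were alternatives. The fit was tested on simulated data. No 2 libraries were identical (lowest chi-square per degree of freedom within a group 2.53). The labels give 1 mouse per library and nothing on litters or dates, so p-values measure the spread between these libraries.

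The 10 genes, the 4 pathway lists and the 13 marker lists were chosen with earlier results of these data known. Named in the text are the 10 members, every gene of the pathway lists called by edgeR, Per2, and the 3 genes nearest in correlation of log2 CPM (prior count 2) to each member where the nearest reached 0.6. Genes outside this rule (Ghsr, Gal, Cort, Ghrhr, Gh, Igfbp5, Socs7, Irs2 and Irs4) were chosen after their values were seen. Gene positions span the outermost exon ends of the count tables, counted from 1.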

Additional observations from a re-analysis of the deposited data

Results flagged for a closer look

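In 4 of the 50 groups of library values, 10 genes in 5 groups, the highest or lowest library stood apart by Dixon's criterion, which chance meets in about 1 of 20 groups. Sstr2 in fed control 5 was 11.56 CPM, with 9.61 CPM as the next value. Ghr in fasted S662D replicate 2 was 11.48 CPM, with 15.68 CPM next. Igf1 in replicate 4 of the labelled knockout was 15.02 CPM, with 12.86 CPM next. Igfbp2 in replicate 5 of the labelled knockout was 31.91 CPM, with 20.32 CPM next.

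The fasting response differed between controls 6 to 10 and controls 1 to 5 for Ghr, by -0.39 on the log2 scale (SE 0.11, adjusted p = 0.0259), and for Igfbp2, by 1.05 (SE 0.32, adjusted p = 0.0357), both by edgeR. The same test, added after seeing the data, gave -0.50 for Bcl6 (SE 0.12, adjusted p = 0.00987), a signalling gene outside the 10. The test called 10.6% of all genes. Without the 5 libraries over 500 CPM of choroid plexus markers, 5.16% of all genes were called. Neither Ghr (-0.36, adjusted p = 0.0934) nor Igfbp2 (0.53, adjusted p = 0.187) passed there.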

How the results depend on the processing

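The count of members called was 0 in every comparison and became 1 under these alternatives: controls 1 to 5 only (Ghr, fasted S662D), S662D libraries with the digit (Igfbp3, on fasting in S662D and in fasted S662D), DESeq2 (Sstr1, fed S662D), and, added after seeing the data, without libraries over 500 or over 100 CPM of choroid plexus markers (Socs2, fasting in controls). Leaving out 1 library gave counts of 0 to 1. Of 1770 alternative values of the 60 member results, 11 passed the threshold and 147 changed sign without passing in either fit. Igfbp7 in fasted S662D mice turned to -0.041 in libraries without the digit. With the replicate number as a replicate block, 0 members were called in each comparison, and Stat5b (0.15, adjusted p = 0.0674) and Igf2r (0.20, adjusted p = 0.0663) in fed S662D mice lost their calls. The numbers were not taken to pair the samples, since in no pair of groups did every same-numbered pair have a correlation over 0.1. It was over 0.1 in 3 of 5 pairs of fed controls and fed S662D mice (-0.052 to 0.236, 3 of 5 best with their own number) and in 2 of 5 of fed and fasted S662D mice (-0.109 to 0.16). It was over 0.1 in 1 of 5 of fasted controls and fasted S662D mice, 0 of 10 of fed and fasted controls (-0.191 to 0.059) and 0 of 5 of fasted controls and the labelled knockout. The number of all genes called depended most on the library sets. On fasting in controls it was 701, against 1315 in controls 1 to 5, 304 in controls 6 to 10 and 425 without libraries over 100 CPM of choroid plexus markers. On fasting in S662D it was 476, against 7 without the digit, 279 with only the groups compared, 241 and 223 without libraries over 500 and 100 CPM, and 311 without fasted S662D replicate 2. The difference of the fasting responses called 0 genes, against 486 with controls 1 to 5 and 9 with the digit. For S662D against control it was 847 (fed) and 1007 (fasted), against 3106 and 3148 with the digit, 16 and 21 without it, 23 and 20 with the digit as a term, 1741 and 1680 against controls 1 to 5, and 33 and 48 against controls 6 to 10. DESeq2 gave 1423 when fed, only the groups compared gave 291 when fasted, and leaving out libraries over 500 and 100 CPM gave 352 and 243 when fed. Leaving out 1 library gave 66 (fed S662D replicate 4) to 1667 (fed S662D replicate 1) when fed and 154 (fasted S662D replicate 4) to 1802 (fasted S662D replicate 1) when fasted. The labelled knockout had 5, against 99 with controls 6 to 10, 2 with controls 1 to 5, 3 with only the groups compared, 8 by DESeq2 and 1 without libraries over 100 CPM. The cause of these moves was not tested. Ghrh and Cish had the fewest counts, with lowest values of 24 and 58 per library.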
